A study of Mus musculus with 24 samples.

Results

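Egr1, Egr2, Nr4a1, Ier2, Ier3, Ier5, Btg2, Dusp1 and Zfp36 are immediate early genes outside the AP-1 family, and their RNA was followed in microglia sorted from mouse retinas. The 9 genes were chosen by name with earlier results of these data known, so their counts below are no independent support. Each matched 1 of the 47729 gene IDs in the deposited tables. Immediate early genes are transcribed within minutes of a stimulus, without new protein synthesis, through kinases that activate factors such as SRF, ELK and CREB already bound to their promoters. Their products include transcription factors of the next wave and inhibitors that shut the response off, and their RNAs are short-lived. In microglia, the resident macrophages of the retina, such genes can also be induced while tissue is dissociated and cells are sorted.

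The study sequenced RNA of microglia from glaucoma-prone DBA/2J mice and a control strain, with 1 library per retina and 24 retinas of 15 animals. The 12-month DBA/2J group (Gpnmb-/- Tyrp1b-/-) held 10 retinas of 5 animals, and each retina carried a grade. The labels graded 3 of these retinas as mild (NOE), 4 as moderate and 3 as severe. The 6-month DBA/2J group had the same genotype, was labelled early disease and held 5 retinas of 5 animals. The 12-month DBA/2J Gpnmb+ group (Gpnmb+/+ Tyrp1b-/-) held 9 retinas of 5 animals. All groups therefore carried Tyrp1b-/-, and none was treated. DBA/2J mice are a model of pigmentary glaucoma in which iris disease raises the pressure in the eye, and restoring Gpnmb spares them. From each retina, 100 to 600 cells with surface CD11b and Fcrls and without Ly6c were collected after a Percoll gradient.

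Total counts per retina ran between 1706775 and 20081114 in 12-month DBA/2J, 12043911 and 17993059 in 6-month DBA/2J, and 977886 and 14845311 in Gpnmb+ retinas. The Gpnmb+ group held all 5 retinas with fewer than 10000 detected genes (genes with at least 1 count), both of animal 1, both of animal 2 and the right retina of animal 3. Detected genes in the other groups numbered 10703 to 15046 in 12-month and 13818 to 16716 in 6-month DBA/2J. Results against Gpnmb+ from edgeR, the main test, are therefore given with and without those 5 retinas, which leaves 3 Gpnmb+ animals. DESeq2, an alternative test, was run with all retinas only. Gpnmb itself had no count in any DBA/2J retina, and also none in 8 of the 9 Gpnmb+ retinas, so it could not check the genotype label. The 12 microglia markers were detected in all groups, with summed levels of 31072 to 42299 CPM in 12-month DBA/2J, 34346 to 37964 CPM in 6-month DBA/2J and 22173 to 36748 CPM in Gpnmb+ animals. CPM per animal are counts per 1000000 of the scaled library, summed over an animal's eyes. Fcrls, the sort marker, was low, at 0.136 to 81.9 CPM in 12-month DBA/2J, 11.2 to 55.2 CPM in 6-month DBA/2J and 0 to 58.9 CPM in Gpnmb+ animals. Rod transcripts, from 12 photoreceptor markers, summed to 519 to 2814 CPM in 12-month DBA/2J, 208 to 2233 CPM in 6-month DBA/2J and 428 to 9466 CPM in Gpnmb+ animals, with the top value in Gpnmb+ animal 2. Of 8 Müller glia and astrocyte markers, 6 or 7 were detected per group, summing to 282 to 421 CPM in 12-month DBA/2J, 269 to 411 CPM in 6-month DBA/2J and 144 to 721 CPM in Gpnmb+ animals, with Gfap at 0 in every retina. The 7 border macrophage markers summed to 12.1 to 194 CPM in 12-month DBA/2J, 0.153 to 90.4 CPM in 6-month DBA/2J and 0.0908 to 119.5 CPM in Gpnmb+ animals. Monocyte markers (3 to 5 of 8 detected, Ly6c1 and F10 at 0) reached at most 43.3 CPM in 12-month DBA/2J, 31.6 CPM in 6-month DBA/2J and 19.8 CPM in Gpnmb+ animals, and endothelial markers (2 to 4 of 6 detected, Cldn5 at 0) at most 29.3, 45.0 and 109.5 CPM in the same groups. Of 6 neutrophil markers only Csf3r, which microglia also express, was detected, at 196 to 468 CPM in 12-month DBA/2J, 369 to 519 CPM in 6-month DBA/2J and 146 to 540.4 CPM in Gpnmb+ animals. In bulk libraries such as these, fewer responding cells and less RNA per cell cannot be told apart.

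Promoters are shown because the factors that start these genes bind known letters there. RefSeq promoter sequence (GRCm38.p6, the 250 bases before the start site, both strands searched) was matched for 7 members, all but Egr1 and Ier2. The cAMP response element TGACGTCA, the site of CREB, was found in 2 of the 7, Btg2 and Dusp1, and in 1.62% of 27025 mouse promoters. Its half-site TGACG, which the full element contains, was found in 3 of the 7, Btg2, Dusp1 and Nr4a1, and in 17.9% of all promoters. In the sequences below, written 5′ to 3′ on the gene's strand, capitals mark the half-site and its reverse complement CGTCA.
Btg2, chr1:134079156-134079405, minus strand: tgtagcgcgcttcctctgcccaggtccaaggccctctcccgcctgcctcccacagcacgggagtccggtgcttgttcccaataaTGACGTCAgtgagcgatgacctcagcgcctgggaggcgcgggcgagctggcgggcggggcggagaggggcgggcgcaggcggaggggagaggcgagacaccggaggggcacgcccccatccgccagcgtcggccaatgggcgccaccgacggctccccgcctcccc
Dusp1, chr17:26508520-26508722, minus strand: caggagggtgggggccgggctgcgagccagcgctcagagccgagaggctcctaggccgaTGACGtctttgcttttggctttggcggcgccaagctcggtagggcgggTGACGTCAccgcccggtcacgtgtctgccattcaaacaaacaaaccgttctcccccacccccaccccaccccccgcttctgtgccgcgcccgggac
Nr4a1, chr15:101266596-101266845, plus strand: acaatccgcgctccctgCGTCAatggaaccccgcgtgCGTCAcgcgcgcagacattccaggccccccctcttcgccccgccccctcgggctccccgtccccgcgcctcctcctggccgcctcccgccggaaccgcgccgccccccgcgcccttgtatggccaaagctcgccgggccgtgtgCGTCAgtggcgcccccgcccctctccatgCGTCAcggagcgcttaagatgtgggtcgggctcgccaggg
The Dusp1 sequence stops short of its start site where the annotation places an exon. The full element lay 166 to 159 bases before the start site in Btg2 and 143 to 136 bases before it in Dusp1. The CArG box, the site of SRF, was found in 1 of the 7, as ccataaaagg 58 to 49 bases before the RefSeq start of Zfp36 (chr7:28379277-28379286), and in 1.4% of all promoters. Start sites here are those of RefSeq. In the GENCODE M21 annotation the windows of Zfp36, Dusp1 and Nr4a1 lie inside the spans of those genes, so their sites are not upstream of every annotated start. The GC box GGGCGG was in 7 of 7 member promoters and 32.9% of all, and TATAAA in 0 of 7 and 13% of all. A match describes letters in the window, and binding was not measured.

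Compared per length, the members spanned a wide range of levels. In 12-month DBA/2J, mean TPM (transcripts per 1000000, as deposited, averaged over an animal's eyes) was 997 for Dusp1, 539 for Egr1, 425 for Btg2, 353 for Ier2 and 238 for Zfp36. Levels below these were 65.9 TPM for Ier3, 38.5 TPM for Ier5, 6.64 TPM for Egr2 and 3.38 TPM for Nr4a1. Dusp1 led in all 3 groups, at 1878 TPM in 6-month DBA/2J and 1763 TPM in Gpnmb+, and the last 5 places, Zfp36 to Nr4a1, kept the same order in each group. Ier2 stood behind Dusp1, Egr1 and Btg2 in 12-month DBA/2J, whereas it stood second in 6-month DBA/2J with 1159 TPM and in Gpnmb+ with 1235 TPM. Egr1, Btg2 and Ier2 had overlapping spreads in each group, with SDs of 198, 143 and 200 TPM in 12-month DBA/2J, so their order among themselves is not firm. Egr2 and Nr4a1 were patchy at the level of single retinas. Egr2 had no count in 3 of 10 retinas of 12-month DBA/2J, 0 of 5 of 6-month DBA/2J and 0 of 9 of Gpnmb+, and Nr4a1 had none in 6 of 10, 0 of 5 and 2 of 9 in the same groups. The limit that a count of 0 allows, 3 counts of the library total, was at most 3.07 CPM in any retina and covers counting error only.

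Spans of the members ran between 1240 bp (Ier3) and 56539 bp (Dusp1). In GENCODE M21 on GRCm38 they lie at chr18:34859823-34864984 (Egr1, plus strand), chr10:67535475-67542188 (Egr2, plus), chr15:101254269-101274795 (Nr4a1, plus), chr8:84661331-84662852 (Ier2, minus), chr17:35821684-35822923 (Ier3, plus), chr1:155096361-155099636 (Ier5, minus), chr1:134075170-134079120 (Btg2, minus), chr17:26505590-26562128 (Dusp1, minus) and chr7:28376784-28380253 (Zfp36, minus). Their median span was 3951 bp with a median of 2 exons in the longest transcript, against 23699 bp and 9 exons for 10704 protein-coding genes tested. Ier2 and Ier5 have 1 exon, whereas Nr4a1 has 8 over 20527 bp. Of the 9 members, 7 (77.8%) had 3 exons or fewer, against 12.6% of the tested coding genes. Dusp1 overlaps Ergic1 on the opposite strand and Zfp36 overlaps the antisense gene Gm44710, and whether the authors' counting used strand is not given in the sources used here. Ergic1 reached at most 95.4 CPM and Gm44710 at most 0.356 CPM in any animal, while Dusp1 had at least 924 CPM and Zfp36 at least 342 CPM.

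The first question was whether the genes differed between 12-month DBA/2J and Gpnmb+ microglia. The fitted log2 fold changes of all 9 members were negative, and 7 of the 9 were lower at an unadjusted p under 0.05 in edgeR's quasi-likelihood test, Egr1, Egr2, Ier2, Ier3, Ier5, Btg2 and Dusp1. Of the 12977 genes tested, 2.45% were lower at that threshold. After Benjamini-Hochberg adjustment over all genes, no gene of any kind was called in edgeR, the smallest adjusted p was 0.313, and those of the members ran between 0.526 and 0.999. The median log2 fold change was -1.16 for the members and 0.05 for all genes tested. Negative values made up 9 of 9 members and 47.5% of all genes. With all retinas, DESeq2 called 108 genes (0.832% of those tested), among them Egr2 (adjusted p = 0.00206), Ier2 (0.0134) and Btg2 (0.036). DESeq2 was not run without the retinas under 10000 detected genes. A limma fit of single retinas with a random animal effect called 8 genes (0.0607%) and 0 members.

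**Figure D1:**
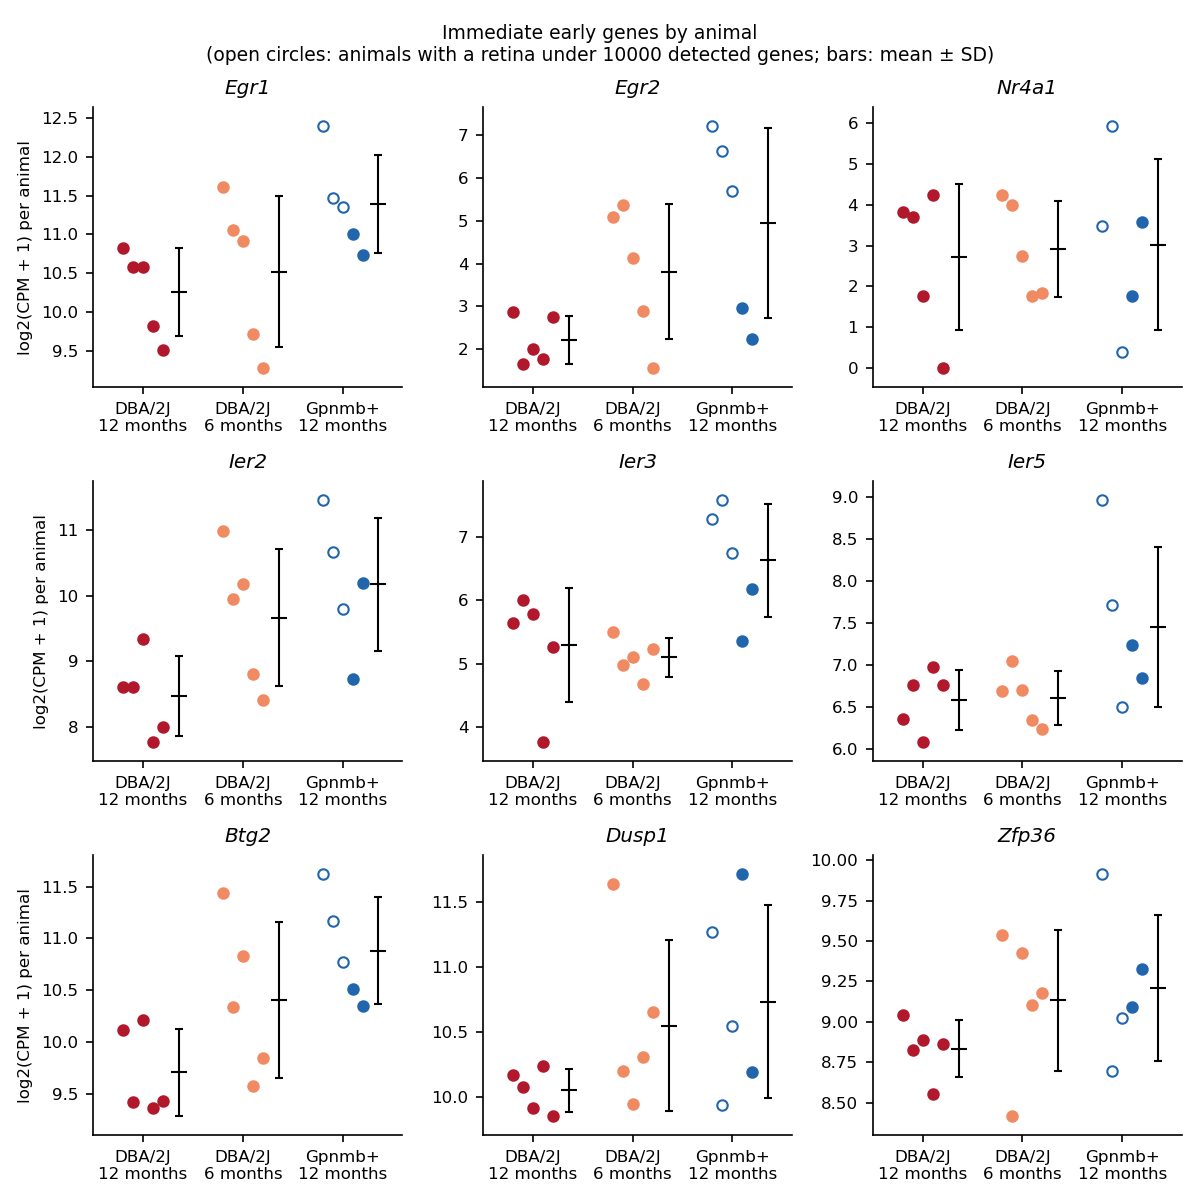
Level of each gene per animal, as log2(CPM + 1), in 12-month DBA/2J, 6-month DBA/2J and 12-month Gpnmb+ animals (5 each), with mean ± SD beside the points and each panel on its own axis. Open circles are Gpnmb+ animals 1, 2 and 3, which had retinas under 10000 detected genes; Btg2 is the gene whose 12-month DBA/2J animals all lie below every Gpnmb+ animal.

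Among the transcription factors, Egr1 encodes a zinc finger factor induced through SRF and ELK. Egr1 had 1818, 1536, 1531, 903 and 732 CPM in 12-month DBA/2J animals 1 to 5, against 5363, 2832, 2622, 2046 and 1701 CPM in Gpnmb+ animals 1 to 5. Only DBA/2J animal 1 reached into the Gpnmb+ range. Its log2 fold change was -1.16 ± 0.40 (SE; p = 0.00932, adjusted p = 0.575 in edgeR). Egr2, a related zinc finger factor known in myeloid cells, had 6.33, 2.17, 3.01, 2.44 and 5.74 CPM in 12-month DBA/2J, against 146, 97.3, 50.5, 6.83 and 3.69 CPM in Gpnmb+. The high values were those of Gpnmb+ animals 1, 2 and 3, while animal 4 lay just above the DBA/2J range and animal 5 inside it. The fitted log2 fold change was -3.95 ± 1.02 (p = 0.00113 in edgeR). Nr4a1, an orphan nuclear receptor also called Nur77, had 0 to 17.9 CPM in 12-month DBA/2J and 0.302 to 59.9 CPM in Gpnmb+. Its log2 fold change of -0.87 had a 95% interval of -3.55 to 1.80, so neither direction was resolved.

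The Ier genes encode small nuclear or membrane proteins named for their immediate early response. Ier2 had 390.0, 387, 649, 217 and 255 CPM in 12-month DBA/2J animals, against 2811, 1624, 892, 423 and 1175 CPM in Gpnmb+ animals. Of the DBA/2J animals, 4 lay below every Gpnmb+ animal, and the log2 fold change was -1.87 ± 0.50 (p = 0.00145 in edgeR). Ier3, an inhibitor of apoptosis that acts on ERK signalling, had 49.0, 63.5, 53.9, 12.6 and 37.5 CPM in 12-month DBA/2J, against 155, 191, 107, 40.2 and 71.1 CPM in Gpnmb+. Gpnmb+ animal 4 was inside the DBA/2J range and the rest were above it. Ier5, a regulator of heat shock factor activity, had 81.5, 108, 67.2, 125 and 108 CPM in 12-month DBA/2J, against 498, 209, 90.0, 151 and 115 CPM in Gpnmb+. Here Gpnmb+ animals 1, 2 and 4 stood above all DBA/2J animals and animals 3 and 5 did not. The log2 fold changes were -1.38 ± 0.47 for Ier3 and -1.12 ± 0.40 for Ier5.

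Btg2 encodes an antiproliferative protein that recruits the CCR4-NOT deadenylase. It had 1109, 684, 1184, 655 and 686 CPM in 12-month DBA/2J, against 3147, 2299, 1747, 1455 and 1299 CPM in Gpnmb+. Btg2 was the member whose groups did not overlap, as was so in the lower direction for 0.285% of the genes tested, and its log2 fold change was -1.20 ± 0.33 (p = 0.00187, adjusted p = 0.555 in edgeR). Dusp1 and Zfp36 are feedback genes. Dusp1, the phosphatase that inactivates p38, JNK and ERK, had 1151, 1077, 960.3, 1206 and 924 CPM in 12-month DBA/2J, against 2470, 980.4, 1496, 3356 and 1167 CPM in Gpnmb+. The sums of the DBA/2J animals lay close together, with a mean of 1064 ± 121 CPM, against 1894 ± 999 CPM in Gpnmb+ (SD, n = 5 each), and the log2 fold change was -0.83 ± 0.33. Single retinas did not lie close, at 353 to 1780 CPM of the unscaled library in 12-month DBA/2J and 320 to 3465 CPM in Gpnmb+. Gpnmb+ animal 4, the highest for Dusp1, held a single retina. Zfp36 (tristetraprolin), which binds AU-rich elements of cytokine RNAs and speeds their decay, had 374 to 526 CPM in 12-month DBA/2J and 415 to 963 CPM in Gpnmb+. Its log2 fold change of -0.43 had a 95% interval of -0.90 to 0.04.

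Without the 5 retinas under 10000 detected genes, 14275 genes were tested and 3 members were lower at an unadjusted p under 0.05, Ier3, Btg2 and Dusp1, against 2.63% of all genes. No gene passed adjustment in edgeR. Dusp1 kept its size, at -0.85 ± 0.36 on the log2 scale (p = 0.0328 in edgeR), as nearly did Ier3 at -1.13 ± 0.50 (p = 0.0389). Btg2 came to -0.75 ± 0.34 (p = 0.0452). Egr2 at -2.13 ± 1.00 (p = 0.05) and Ier2 at -1.04 ± 0.49 (p = 0.0509) just missed the threshold. Ier5 came to -0.10 ± 0.33, the least of the values that stayed negative. Egr1 came to -0.66 ± 0.42 and Zfp36 to -0.29 ± 0.22, and Nr4a1 turned positive at 0.98 ± 1.55. The median over members was -0.75, with 8 of 9 negative, against a median of 0.05 and 47.5% negative over all genes tested. The retinas left out belonged to the Gpnmb+ animals with the lowest summed microglia markers (25192 CPM in animal 1, 22173 CPM in animal 2 and 31855 CPM in animal 3), and animal 2 had the highest rod sum. Rod markers had a median log2 fold change of -0.63 with all retinas (11 of 12 negative) and of 1.53 without the low ones (11 of 12 positive, 4 higher at an unadjusted p under 0.05, against 4.77% of all genes). The part of these in the results was not tested.

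**Figure D2:**
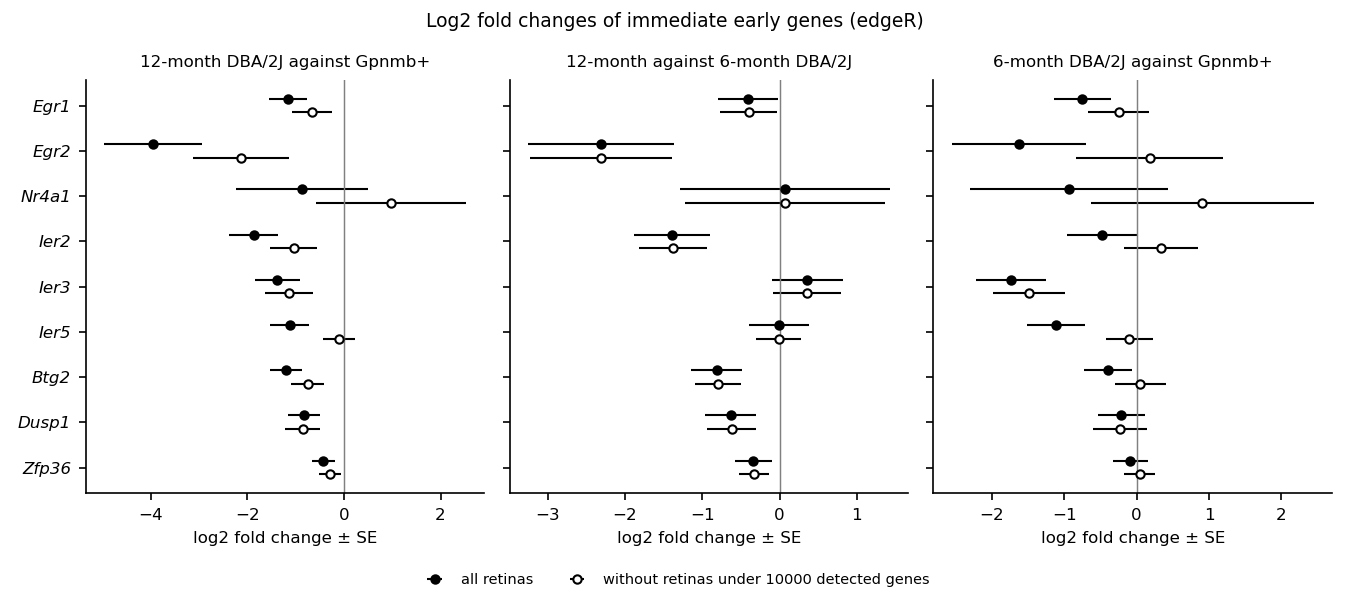
Log2 fold change ± SE of the 9 genes from edgeR in the 3 group comparisons, with all retinas (filled) and without the 5 Gpnmb+ retinas under 10000 detected genes (open). Values left of 0 are lower in the group named first; in the left panel Ier5 goes to -0.10 without those retinas while Dusp1 stays at -0.85.

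The second question was whether the genes changed with age and disease within DBA/2J. Of the 9 members, 3 were lower at 12 than at 6 months at an unadjusted p under 0.05, Ier2, Btg2 and Egr2, against 1.55% of the 12977 genes tested. No gene was called after adjustment in edgeR, and the members' adjusted p ran between 0.925 and 1. Ier2 had 390.0, 387, 649, 217 and 255 CPM at 12 months, against 2025, 982, 1164, 446 and 340 CPM in 6-month animals 1 to 5, and its log2 fold change was -1.39 ± 0.49 (p = 0.0112 in edgeR). Btg2 averaged 864 ± 260 CPM at 12 months and 1512 ± 816 CPM at 6 months (SD, n = 5 each). Its log2 fold change was -0.81 ± 0.33 (p = 0.024 in edgeR). In both genes the 6-month animals 4 and 5 lay within the 12-month range and animals 1, 2 and 3 above it. Egr2 averaged 3.94 ± 1.95 CPM at 12 months and 19.6 ± 16.5 CPM at 6 months, with a log2 fold change of -2.31 ± 0.95 (p = 0.0257 in edgeR). Its 6-month values, 33.1, 40.1, 16.6, 6.42 and 1.97 CPM, were likewise high in animals 1, 2 and 3, with animal 4 just above and animal 5 just below the 12-month range.

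Markers of other cells also differed in level between the ages, with a median log2 fold change of 1.18 for 12 rod markers (11 positive, 1 higher at an unadjusted p under 0.05, against 2.1% of all genes) and of 1.82 for 5 tested border macrophage markers (all positive, 0 past the threshold). Their part in the result was not tested.

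The remaining members were not past the threshold. Log2 fold changes at 12 against 6 months were -0.63 for Dusp1, -0.41 for Egr1, -0.34 for Zfp36, -0.01 for Ier5, 0.36 for Ier3 and 0.07 for Nr4a1. Ier5 was nearly level, at 97.8 ± 23.1 CPM at 12 months and 98.6 ± 22.6 CPM at 6 months, with a 95% interval of -0.78 to 0.76. Ier3 averaged 43.3 ± 19.5 CPM at 12 months and 33.9 ± 7.25 CPM at 6 months. The age comparison leaned on single animals. The 6-month animal 1 had the highest level of 7 of the 9 members in its group, and the members together made up 1.20% of its scaled library, against 0.398% to 0.675% in the other 6-month animals and 0.321% to 0.514% in 12-month DBA/2J. Without 6-month animal 1, 0 members were past the unadjusted threshold (3.5% of genes, in either direction), and without 12-month animal 2 (3.42%) or 12-month animal 4 (3.02%), 1 was. Without the 5 low Gpnmb+ retinas, which bear on this comparison through the shared fit, the same 3 members were lower, against 3.59% of genes.

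The third question was whether 6-month DBA/2J, at early disease, already differed from the 12-month Gpnmb+ animals. Strain genotype and age differ together in it and cannot be told apart, and it shares the Gpnmb+ animals with the first comparison and the 6-month animals with the second. Lower at an unadjusted p under 0.05 were 2 members, Ier3 and Ier5, against 1.57% of genes tested, and none passed adjustment in edgeR. Ier3 had 44.2, 30.4, 33.4, 24.7 and 36.5 CPM in 6-month DBA/2J, against 155, 191, 107, 40.2 and 71.1 CPM in Gpnmb+. Only 6-month animal 1 reached into the Gpnmb+ range, and the log2 fold change was -1.74 ± 0.48 (p = 0.00189, adjusted p = 0.782 in edgeR; adjusted p = 0.0304 in DESeq2, which called 0.439% of genes). Ier3 was also lower without the 5 low retinas in edgeR, at -1.49 ± 0.50 (p = 0.00911), as were 1.78% of genes. DESeq2 was not run without them. Ier5 had -1.11 ± 0.40 (p = 0.0122) with all retinas and -0.10 ± 0.33 without them. Fitted values of all 9 members were negative with all retinas (48.7% of genes) and of 4 without the low ones (48.4%). Gpnmb+ animal 1 was the highest of its group in 6 of the 9 members, which made up 1.56% of its scaled library, against 0.618% to 0.871% in the other Gpnmb+ animals. Without that animal 1 member was past the unadjusted threshold (4.93% of genes, in either direction), and without Gpnmb+ animal 5 (7.51%) or 6-month animal 1 (4%) there were 4. Rod markers had a median log2 fold change of -1.77 with all retinas (12 of 12 negative, 3 lower at an unadjusted p under 0.05) and of 0.29 without the low ones, and their part was not tested.

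Sums per animal of mild, of moderate and of severe eyes were each set against Gpnmb+. These 3 comparisons share the Gpnmb+ animals, and 15959 genes were tested. Mild eyes (2 animals) had 4 members lower at an unadjusted p under 0.05, Egr1, Ier2, Ier3 and Btg2, against 2.75% of genes. Moderate eyes (3 animals) had 7 lower, all but Ier3 and Nr4a1, against 3.71%. Severe eyes (2 animals) had 2 lower, Ier3 and Ier5, against 1.2%. No gene passed adjustment in edgeR in any of the 3. DESeq2 called Ier2 (adjusted p = 0.00184) and Ier3 (0.00216) in mild eyes, where it called 3.76% of genes. In moderate eyes it called Btg2 (0.00451), Dusp1 (0.0432), Egr2 (0.00138) and Ier2 (0.00487), with 1.85% of genes. With no filter on low counts, edgeR called Egr1 and Ier2 in mild eyes (0.116% of genes) and Egr1, Ier2, Btg2 and Dusp1 in moderate eyes (0.124%). Their fold changes hardly moved, and the p-values did. Ier2 in moderate eyes had -2.28 in both fits, with an edgeR p of 0.000823 with the filter and 1.1e-11 without it. The reason was not tested. Without the retinas under 10000 detected genes, where DESeq2 was not run, the edgeR counts at an unadjusted p under 0.05 were 2 in mild eyes (Ier2 and Ier3, against 3.62%), 4 in moderate eyes (Ier2, Btg2, Dusp1 and Zfp36, against 4.55%) and 0 in severe eyes (against 1.56%).

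Btg2, Dusp1 and Zfp36 had their most negative values in moderate eyes. Btg2 had a log2 fold change of -1.87 ± 0.42 in moderate eyes (p = 0.000254, adjusted p = 0.578 in edgeR), with -1.09 ± 0.47 in mild and -0.59 ± 0.46 in severe eyes. Dusp1 had -1.64 ± 0.48 in moderate eyes, with -0.38 ± 0.52 in mild and -0.55 ± 0.53 in severe eyes. Zfp36 had -0.90 ± 0.35 in moderate eyes, with -0.11 ± 0.39 in mild and -0.09 ± 0.39 in severe eyes. Without the low retinas, moderate eyes had -1.43 ± 0.42 for Btg2 (p = 0.00371 in edgeR), -1.67 ± 0.51 for Dusp1 and -0.77 ± 0.34 for Zfp36. Egr1, at -1.43 ± 0.59 in mild, -1.49 ± 0.51 in moderate and -0.61 ± 0.57 in severe eyes, was alike in the milder grades. Egr2 and Nr4a1 were also most negative in moderate eyes, with wide errors, at -4.89 ± 1.58 and -2.0 ± 2.08. The Ier genes ran otherwise. Ier2 had -2.66 in mild, -2.28 in moderate and -1.22 in severe eyes. Ier3 was least negative in moderate eyes, at -0.61, with -2.49 in mild and -1.56 in severe eyes. Ier5 had -0.62 in mild, -1.08 in moderate and -1.63 in severe eyes. Moderate eyes were not tested against the other grades. Rod markers had a median log2 fold change of -2.19 in mild, 0.75 in moderate and -1.55 in severe eyes, with 0, 11 and 0 of 12 positive, and of -0.32, 2.95 and 0.57 without the low retinas, when 7 of 12 were higher in moderate eyes at an unadjusted p under 0.05 (4.42% of all genes). Border macrophage markers had medians of -4.22, 4.64 and -0.74 in the same order of grades with all retinas. The part of these markers in the values of moderate eyes was not tested. With the animal number as a replicate block, Btg2 (adjusted p = 0.0098) and Egr1 (adjusted p = 0.0442) were called in moderate eyes by edgeR, among 4 genes in all (0.0251%), although the numbers do not pair the animals.

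Across the grades themselves, Ier2 was the member whose slope passed an unadjusted p under 0.05. It had 218 and 213 CPM in mild sums (animals 4 and 5), 170, 382 and 290 CPM in moderate sums (animals 1, 2 and 5) and 520 and 652 CPM in severe sums (animals 1 and 3). Both severe sums stood above all others, and the share of all genes that separate in this way was not counted. The slope was 0.71 ± 0.24 log2 units per grade (p = 0.0129, adjusted p = 1 in edgeR), a rise at that threshold that 0.815% of 12019 genes had. Without animal 3 the slope was 0.59 and no longer past it. Ier5 ran the other way, with 125 and 148 CPM in mild, 113, 107 and 77.2 CPM in moderate, and 68.4 and 67.5 CPM in severe sums, and its slope of -0.51 ± 0.27 did not pass (p = 0.0787). Slopes of the other members ran between -0.10 (Dusp1) and 0.46 (Ier3), none past the threshold.

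**Figure D3:**
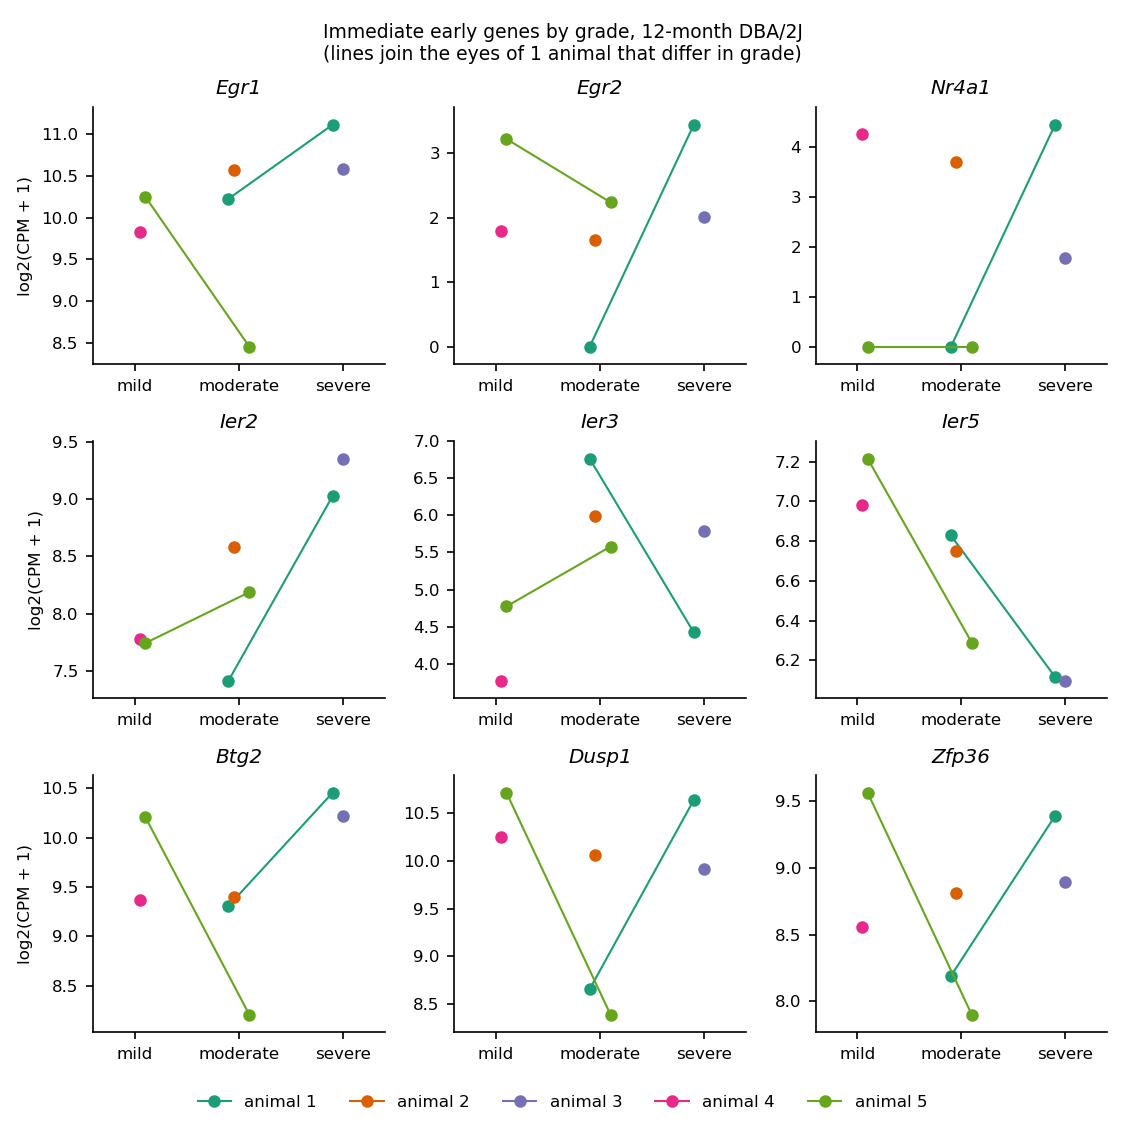
Level of each gene, as log2(CPM + 1), in mild, moderate and severe sums of 12-month DBA/2J animals, colored by animal, with lines joining the eyes of animals 1 and 5, whose grades differ. Ier2 is highest in both severe sums (520 and 652 CPM) and Ier5 lowest there (68.4 and 67.5 CPM).

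The grade differed between the eyes of animals 1 and 5, so it could be read within an animal, without replication. In animal 5 the moderate eye was far below the mild eye for Egr1 (350 CPM in the moderate eye, 1218 CPM in the mild eye), Btg2 (295 and 1182 CPM) and Dusp1 (335 and 1671 CPM). In animal 1 it was the severe eye that was above the moderate one, for Egr1 (2213 CPM in the severe eye, 1196 CPM in the moderate eye), Btg2 (1400 and 633 CPM) and Dusp1 (1585 and 403 CPM). Both moderate eyes were thus the lower ones of their animals for these genes, and also for Zfp36 and Egr2. Ier2 was higher in the worse eye of both, at 290 CPM in the moderate and 213 CPM in the mild eye of animal 5, and 520 CPM in the severe and 170 CPM in the moderate eye of animal 1. Ier3 was higher in both moderate eyes, at 46.8 CPM against 26.3 CPM in the mild eye of animal 5. In animal 1 Ier3 had 108 CPM in the moderate and 20.5 CPM in the severe eye. Ier5 was lower in the worse eye of both, at 77.2 against 148 CPM in animal 5 and 68.4 against 113 CPM in animal 1. Nr4a1 had no count in either eye of animal 5. The share of all genes with such patterns was not counted.

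Eyes of 1 animal were also set against each other, with CPM of each retina's unscaled library total. The absolute log2 ratio between eyes for Egr1 was 0.85 to 1.82 in the 5 12-month DBA/2J animals, against 0.11 to 0.25 in the 4 Gpnmb+ animals with both retinas. Of those 4, only animal 5 had no retina under 10000 detected genes, so the eyes could not be compared without the low retinas. For Zfp36 it was 0.45 to 1.69 in DBA/2J and 0.03 to 0.29 in Gpnmb+. Between animals the median difference for Egr1 was 0.76 in DBA/2J and 0.68 in Gpnmb+, and for Zfp36 it was 0.20 in DBA/2J and 0.49 in Gpnmb+. The values between animals use CPM of the scaled library, so they are not on the same measure as the ratios between eyes. In the ratios between eyes the groups did not overlap for 2 of the 6 members with at least 10 counts in every such retina, against 1.22% of 1150 genes measured in this way. Btg2 spanned 0.12 to 2.02 in DBA/2J and 0.12 to 0.38 in Gpnmb+. Dusp1 spanned 0.38 to 2.34 in DBA/2J (median 1.74) and 0.23 to 1.94 in Gpnmb+ (median 0.86). Ier5 went the other way, with a median of 0.34 in DBA/2J and 1.23 in Gpnmb+. Over all 1150 genes the median difference between eyes was close in both groups, 0.71 in DBA/2J and 0.69 in Gpnmb+, and over the 6 members it was 0.90 and 0.29. Grades differed between the eyes in 2 of the 5 DBA/2J animals, and those 2 had Egr1 differences of 0.95 (animal 1) and 1.82 (animal 5), against 0.85 to 1.17 in the others.

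**Figure D4:**
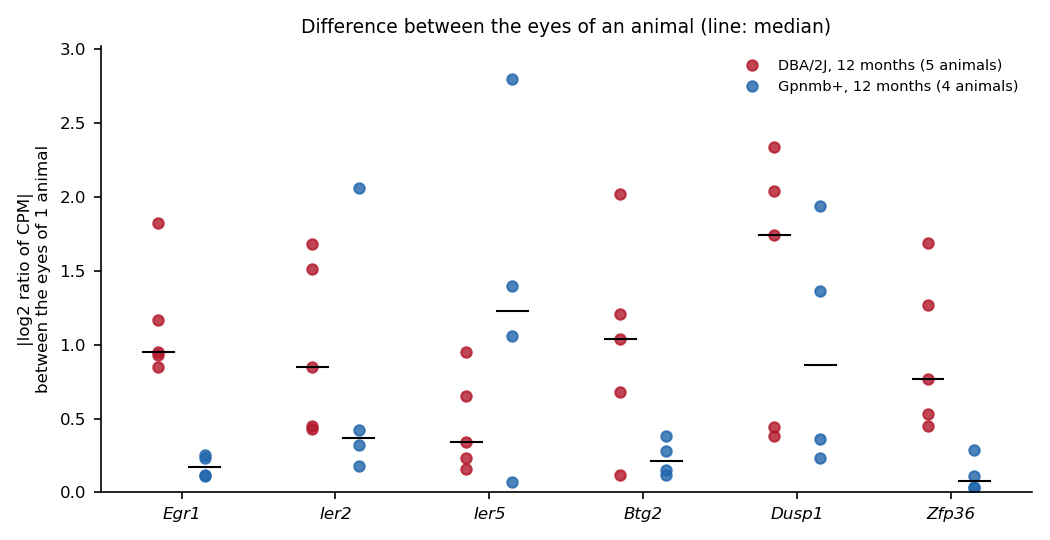
Absolute log2 ratio of CPM (of the unscaled library total) between the eyes of 1 animal for the 6 genes with at least 10 counts in every retina, in 12-month DBA/2J (left of each pair, 5 animals) and Gpnmb+ (right, 4 animals), with lines at the medians. For Egr1 and Zfp36 every DBA/2J animal lies above every Gpnmb+ animal.

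Other genes of the response were read from lists chosen with earlier results of these data known. Of 7 tested genes of the AP-1 family and Atf3, 6 were lower in 12-month DBA/2J than in Gpnmb+ at an unadjusted p under 0.05, against 2.45% of all genes tested. The median log2 fold change of the 7 was -1.27. Jun, the core AP-1 subunit, averaged 2238 ± 499 CPM in 12-month DBA/2J and 5384 ± 2310 CPM in Gpnmb+, a log2 fold change of -1.27 ± 0.32 (p = 0.000837, adjusted p = 0.434 in edgeR). Atf3, a stress-induced factor, averaged 80.8 ± 50.8 CPM in DBA/2J and 486 ± 432 CPM in Gpnmb+. Of 26 other immediate early and feedback genes, 11 were lower and 0 higher (2.45% and 2.76% of all genes), with a median of -1.06. Ppp1r15a, which reverses the block on translation initiation, averaged 137 ± 38.4 CPM in 12-month DBA/2J and 350.3 ± 137 CPM in Gpnmb+ (log2 fold change -1.35 ± 0.29, p = 0.000217, adjusted p = 0.313 in edgeR). Rhob, a small GTPase, had -1.71 ± 0.39, Nfkbiz, a nuclear IκB protein, -1.57 ± 0.46, and Sgk1, a kinase, -1.08 ± 0.30. In 12-month against 6-month DBA/2J, Ppp1r15a had -1.48 ± 0.29 (p = 8.81e-05) and Sgk1 -1.31 ± 0.31 (p = 0.00045, both in edgeR).

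Paralogs of the members and the lists after them were read in the same way, beside the same shares of all genes (47.5% negative, 2.45% lower at the threshold). Of 10 paralogs tested, 9 had negative values in 12-month DBA/2J against Gpnmb+, 1 was past the threshold and the median was -0.44. That 1 was Dusp6, the ERK phosphatase, at -0.99 ± 0.30, while Btg1 and Zfp36l1 each had -0.38. Of 22 kinases and transcription factors upstream of the response, 1 was lower, the ERK-activated kinase gene Rps6ka1 at -0.78 ± 0.25, and the median was -0.30. Nab2, a corepressor of Egr factors, had 2.30 ± 1.38, not past the threshold with all retinas. Of 12 heat shock chaperones, 1 was lower, Dnajb1 at -1.68 ± 0.52, and the median was -0.18. Among 8 tested inflammatory transcripts that Zfp36 binds, 4 were positive and 4 negative. The chemokine genes Ccl3 (-1.33 ± 0.46) and Ccl4 (-1.43 ± 0.65) were the 2 lower ones, and the cytokine gene Il1b averaged 47.9 ± 39.3 CPM in 12-month DBA/2J and 6.94 ± 6.94 CPM in Gpnmb+, with a log2 fold change of 2.78 ± 1.51 (p = 0.0831 in edgeR). Without the low retinas the counts lower were 2 of 7 for the AP-1 list and 5 of 28 for the other immediate early genes, with 1 of the 28 higher. Of all genes, 2.63% were then lower and 4.77% higher at the threshold. Rhob came to -0.56 ± 0.32 (p = 0.0979 in edgeR), Atf3 to -1.30 ± 0.78 (p = 0.115) and Dnajb1 to -0.82 ± 0.51 (p = 0.126), none past the threshold any more. Of the 12 chaperones 9 were then positive, with a median of 0.29, 0 lower and 1 higher. Of the 8 inflammatory transcripts 0 were lower and 1 higher, with Ccl3 at -0.56 ± 0.44 and Ccl4 at -0.16 ± 0.61. Of the paralogs 2 of 11 were lower, and of the upstream genes 2 of 22 were lower and 1 higher. That higher gene was Nab2, at 3.59 ± 1.43 (p = 0.0233, adjusted p = 0.662 in edgeR).

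Over all 15 animals, genes whose pattern was close to that of the members included Jun, Junb, H3f3b and Ccl3. Likeness was the mean absolute difference between a gene's standardised log2 CPM and the mean of the 9 members, and 7029 genes were candidates. It was 0.300 for Jun, 0.320 for Junb, 0.377 for H3f3b and 0.387 for Ccl3, with a median of 1.11 over the candidates. Among the members, Btg2 at 0.252 followed the common pattern most closely and Nr4a1 at 0.798 least, although each member is part of that mean. All retinas entered this measure, and it was not repeated without the Gpnmb+ retinas under 10000 detected genes.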

How the data were processed

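Per the file headers, the deposited tables give expected counts, estimated reads per gene that need not be whole, and TPM for each retina. The submitters' processing notes name mm10, R 4.0.3, DESeq2 1.30.1 and Salmon 1.4.0 with no step for any of them, and the settings of the counting were not found in the labels or headers. A further table with 24 columns of FPKM was not used. The 9 members and all gene lists were chosen with earlier results of these data known. Groups, animals, eyes and grades came from the labels.

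Expected counts were rounded to whole numbers, and retinas of 1 animal (or 1 animal and grade) were added up. The animal was the replicate, with 5 per group, and animals 1 and 5 of 12-month DBA/2J entered the grade fits with a sum per grade, taken as independent. Of 47729 gene IDs, 47224 matched a symbol in GENCODE M21. Tests were edgeR 4.0.16 quasi-likelihood F tests in R 4.3.3, two-sided, with TMM scaling, filterByExpr (minimum count 10, minimum total 15) and Benjamini-Hochberg adjustment over every gene tested, threshold 0.05. The 3 group comparisons shared 1 fit of 15 animals, the grade comparisons a second, and the grade trend (scores 0, 1 and 2) used 12-month DBA/2J alone. The edgeR test with its main settings was tried on simulated data for a group, a grade and a trend comparison, and the alternatives were not. CPM per animal or per grade sum are counts per 1000000 of the scaled total, and those of single retinas are of the unscaled library total. Figures of levels show log2(CPM + 1). Fold changes are 12-month over 6-month DBA/2J or DBA/2J over Gpnmb+, and 95% intervals are the fold change ± 1.96 SE.

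Retinas of a group were not duplicates, since chi-square per degree of freedom was at least 81.8 over 91 pairs. Genes named are the 9 members, Gpnmb, up to 4 genes per list with the smallest p in 12-month DBA/2J against Gpnmb+, and the 5 of most similar pattern, of which 1 is not reported here. Alternatives were DESeq2 1.42.0, RLE scaling, no filter, 1 retina per animal, a stricter filter (50 counts in 5 sums), retinas as replicates, a random animal effect (limma 3.58.1), the compared groups alone, the animal number as a block, without retinas under 10000 detected genes, and without each animal. P-values of the group comparisons measure the spread between animals within these groups. In the grade fits animals 1 and 5 count with a sum per grade. P-values of the mild, moderate and severe comparisons therefore rest on a spread that takes both sums of these animals as independent. Those of the trend also take in the spread between eyes of 1 animal. Sequences are from RefSeq (GRCm38.p6) and positions from GENCODE M21 (GRCm38, the assembly of mm10).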

Additional observations from a re-analysis of the deposited data

Results flagged for a closer look

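Nr4a1 in Gpnmb+ animal 2 stood far from the other animals of its group, at 59.9 CPM against a next highest value of 10.97 CPM. Its right retina had 0 counts of Nr4a1 and its left retina 299, and both were under 10000 detected genes. Dusp1 in 6-month DBA/2J animal 1 stood far above its group, at 3179 CPM against a next highest value of 1605 CPM. The same animal was highest in 7 of the 9 members. A gap test was run on 27 groups of 5 animals, and chance flags about 1 in 20 groups.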

How the results depend on the processing

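Of the 502 log2 fold changes of single members recomputed under alternatives other than leaving out an animal, 455 kept their direction and their side of the adjusted threshold, 18 came to pass it and 29 turned in sign. Leaving out 1 animal at a time gave 855 values, of which 821 stayed and 34 turned. No cause was tested. Numbers of genes called after adjustment were 0 in edgeR in all 7 comparisons as reported. DESeq2 called 108 genes in 12-month DBA/2J against Gpnmb+, 61 in 12-month against 6-month DBA/2J, 57 in 6-month DBA/2J against Gpnmb+, 600 in mild, 296 in moderate and 277 in severe eyes against Gpnmb+, and 26 in the grade trend. A random animal effect called 8, 5, 40, 3, 13, 32 and 2 in the same order. Without a filter on low counts edgeR called 2 in 12-month against 6-month DBA/2J, 31 in mild, 33 in moderate and 10 in severe eyes, and 6 in the trend. With the animal number as a replicate block it called 4 in moderate and 1 in severe eyes. The numbers did not pair the animals: correlations of same-numbered animals ran between -0.0462 and 0.0884, and 3 of 15 animals correlated best with their own number. Leaving out 1 animal gave 0 to 1 genes in 12-month DBA/2J against Gpnmb+, 0 to 2 in mild and 0 to 4 in moderate eyes.

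Members past an unadjusted p of 0.05 are given with the share of all genes past it in either direction. They numbered 7 in 12-month DBA/2J against Gpnmb+ (5.21% of genes) and 3 without the low retinas (7.4%). In 12-month against 6-month DBA/2J there were 3 (3.65%), with 5 under the random effect (7.49%). In 6-month DBA/2J against Gpnmb+ there were 2 (3.77%), with 4 in DESeq2 (6.4%), 0 under the random effect (16.7%), 1 without the low retinas (5.42%), 4 with the block (3.85%) and 1 with 1 retina per animal (3.4%). Mild eyes had 4 (5.42%), with 0 under the random effect (6.76%) and 2 both without the low retinas (5.85%) and with the block (2.39%). Moderate eyes had 7 (8.46%), with 4 without the low retinas (8.96%). Severe eyes had 2 (4.27%), with 4 in DESeq2 (6.7%) and with no filter (4.89%), 0 under the random effect (8.98%) and without the low retinas (3.86%), and 5 with the block (2.12%). The trend had 1 (1.43%), with 2 under the random effect (7.54%). Leaving out 1 animal gave a range of 0 to 3 in 12-month against 6-month DBA/2J (3.02% to 5.93% of genes), one of 1 to 4 in 6-month DBA/2J against Gpnmb+ (3.81% to 7.51%), 2 to 5 in mild eyes (3.85% to 6.45%; 2 without DBA/2J animal 4 or Gpnmb+ animal 1), 0 to 3 in severe eyes (2.63% to 5.68%; 0 without DBA/2J animal 1, and 1 without DBA/2J animal 3 or Gpnmb+ animal 1, 2 or 3) and 0 to 2 in the trend (1.07% to 2.44%; 0 without animal 3, 2 without animal 5).

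Turned log2 fold changes were mostly of genes near 0 or sparse. Without the low retinas they were Nr4a1 at 0.98 in 12-month DBA/2J against Gpnmb+, Egr2 at 0.18, Nr4a1 at 0.91, Ier2 at 0.34, Btg2 at 0.05 and Zfp36 at 0.04 in 6-month DBA/2J against Gpnmb+, Nr4a1 at 0.95, Ier5 at 0.38 and Zfp36 at 0.02 in mild eyes, and Nr4a1 at 1.29 and Zfp36 at 0.01 in severe eyes. In 12-month against 6-month DBA/2J they were Nr4a1 at -3.45 and Ier3 at -0.02 under the random effect, Nr4a1 at -0.10 and Ier5 at 0.01 with the block, Nr4a1 at -0.41 and Ier5 at 0.01 with each retina as a replicate, Ier5 at 0.01 with no filter and Ier3 at -0.32 with 1 retina per animal. In 6-month DBA/2J against Gpnmb+ they were Nr4a1 at 1.04 and Dusp1 at 0.06 under the random effect and Dusp1 at 0.02 with each retina. With the block, Nr4a1 had 0.96 and Zfp36 0.00 in mild eyes and Nr4a1 0.51 in severe eyes. In the trend, Zfp36 had -0.02 in DESeq2 and with RLE scaling, and Egr2 had -0.11 and Dusp1 0.03 under the random effect.

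Leaving out 1 animal turned Nr4a1, which ran between -1.27 and 0.61 in 12-month DBA/2J against Gpnmb+, -0.33 and 0.52 in 12-month against 6-month DBA/2J, -1.36 and 0.55 in 6-month DBA/2J against Gpnmb+, -10.98 and 0.58 in mild eyes, -2.75 and 0.95 in severe eyes and -0.90 and 3.08 in the trend. Zfp36 ran between -0.20 and 0.13 in 6-month DBA/2J against Gpnmb+, -0.73 and 0.29 in mild eyes, -0.35 and 0.12 in severe eyes and -0.20 and 0.33 in the trend. Dusp1 ran between -0.59 and 0.11 in 6-month DBA/2J against Gpnmb+ and -0.38 and 0.11 in the trend, Ier5 between -0.11 and 0.11 in 12-month against 6-month DBA/2J, and in the trend Egr2 between -0.48 and 0.84 and Ier3 between -0.08 and 0.87. Nr4a1 had few or no counts in many retinas, shallow and deep ones alike, such as 0 in a DBA/2J retina of 15825483 counts. Egr2 had 0 in DBA/2J retinas of 4983389 to 6203795 counts and 1 in a retina of 10662178. It had 18 in the shallowest DBA/2J retina, of 1706775 counts, and 90 in the deepest, of 20081114. Depth differed between groups, with all 5 retinas under 10000 detected genes in Gpnmb+, and a count of 0 allows up to 3.07 CPM in the shallowest retina.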
